A study of Homo sapiens with 5 samples.

Results

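The genes described here are the transcription factor genes of 14 developmental families outside the HOX clusters (SOX, PAX, sine oculis homeobox, GATA, TBX, LHX, DLX, IRX, MSX, EMX, OTX, FOX, NKX and SP5 to SP9), read in HEK293T cells with and without ascorbic acid. They were taken from the count table by gene symbol, with a minimum of 20 counts summed over the 5 libraries. Of 28278 genes in the table, 143 had a matching symbol and 103 of these reached the minimum. HEK293T is an established line of human embryonic kidney origin. The control group is 3 libraries of untreated wild-type cells, and the treated group is 2 libraries of the same line given ascorbic acid (vitamin C). The labels give no dose. They give 24 h for seeding, and a treatment of 24 h for a DNA test and 36 h for an RNA test, with fresh medium every 6 h. Whether the 36 h of the RNA test applies to these libraries is not said. All groups are a single cell line, with no word on whether each library is its own culture, so the p-values reflect only how far these 5 libraries spread, possibly for technical reasons.

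Transcription factors of these families bind short DNA motifs through a homeodomain, forkhead, HMG box, paired, T-box or zinc finger domain and turn cell-type programmes on and off during embryonic development. Many of their genes have promoters rich in CpG, the dinucleotide that DNA methyltransferases methylate, and in differentiated cells many are held silent by Polycomb complexes. Ascorbic acid supports the iron-dependent dioxygenases, among them the TET enzymes that oxidise methylated CpG and the JmjC histone demethylases. DNA methylation and protein were not analysed here.

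The libraries held 35106664 to 57212071 gene counts. Levels are given as CPM, counts per 1000000 gene counts after correction of the library sizes by TMM factors, and changes as log2 fold changes of ascorbic acid over control with their standard error (SE). In bulk RNA, fewer cells of a type and less RNA per cell cannot be told apart. Of the kidney epithelial markers, the cadherin genes CDH6 and CDH16 had 0 counts in every library, and the renal regulators PAX2 and LHX1 averaged 0.623 and 0.338 CPM. Others were expressed, with averages of 30.1 CPM for KRT18, 26.8 CPM for LRP2 and 7.57 CPM for KRT8. The summed level of 11 kidney epithelial markers was 61.2 to 67.0 CPM in controls and 68.1 to 71.6 CPM in treated libraries, where 3 of 7 tested markers rose and 1 fell. The sums were 263 to 271 CPM against 312 to 318 CPM for 10 neuronal-lineage markers (5 of 8 tested rose), 879 to 915 CPM against 975 to 1018 CPM for 12 fibroblast markers (3 of 6 rose) and 83.1 to 87.1 CPM against 91.0 to 97.5 CPM for 12 haematopoietic markers (1 of 5 rose). The neural crest sum was 19.6 to 22.2 CPM against 18.5 to 21.0 CPM and the pluripotency sum 13.5 to 15.7 CPM against 16.0 to 16.3 CPM. Endothelial and hepatocyte or endoderm sums stayed at or below 1.01 CPM in every library. Several sums came mostly from 1 gene. These were UCHL1 in the neuronal-lineage set (202 CPM on average), VIM in the fibroblast set (850 CPM) and LCP1 in the haematopoietic set (77.4 CPM). In the neural crest set it was MITF (14.1 CPM). In the pluripotency set it was SOX2 (14.4 CPM), itself among the genes described here. VIM, MITF and SOX2 were not called. Of all genes tested, 8.53% were called higher and 5.76% lower. The risen kidney epithelial markers were KRT8 (1.47), EPCAM (1.80) and KRT18 (0.25 on the log2 scale), and the fallen one was LRP2 (-0.45). The risen fibroblast markers were COL3A1 (1.28), COL1A1 (0.67) and FN1 (0.38). The fibroblast markers COL1A2, DCN, THY1 and FAP had at most 2 counts in any library, and so did the blood marker PTPRC and the endothelial markers PECAM1 and CDH5. Whether these marker shifts have a part in the results below was not tested.

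Of the 103 genes, 99 passed the filter on low counts and were tested. In edgeR's quasi-likelihood test 13 had an adjusted p under 0.05, which is 13.1% of those tested, beside 14.3% of all 15271 genes tested. With ascorbic acid 5 were higher (5.05%, beside 8.53% of all genes) and 8 were lower (8.08%, beside 5.76%). These shares lie near the background. The 5 higher genes were IRX6, NKX2-8, LHX9, FOXC2 and FOXN4, and SP9, FOXB1, GATA6, FOXA1, FOXF2, FOXO1 and FOXK1 were among the 8 lower genes. The median log2 fold change was 0.08 over the 99 genes and 0.00 over all genes tested. Scaling by library totals in place of TMM gave 11 higher and 6 lower (17.2% of those tested, beside 13.8% of all genes). DESeq2 gave 2 higher and 8 lower (9.71%, beside 8.21%). Removal of GC and length trends gave 9 higher and 16 lower (25.3%, beside 20.1%). Without control replicate 1 there were 3 higher and 5 lower, 3 were higher without control replicate 2 or treated replicate 2, and 5 were lower without treated replicate 1. In these fits 8.08% to 9.09% of the tested developmental genes were called in either direction, beside 7.79% to 10.5% of all genes.

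**Figure D1:**
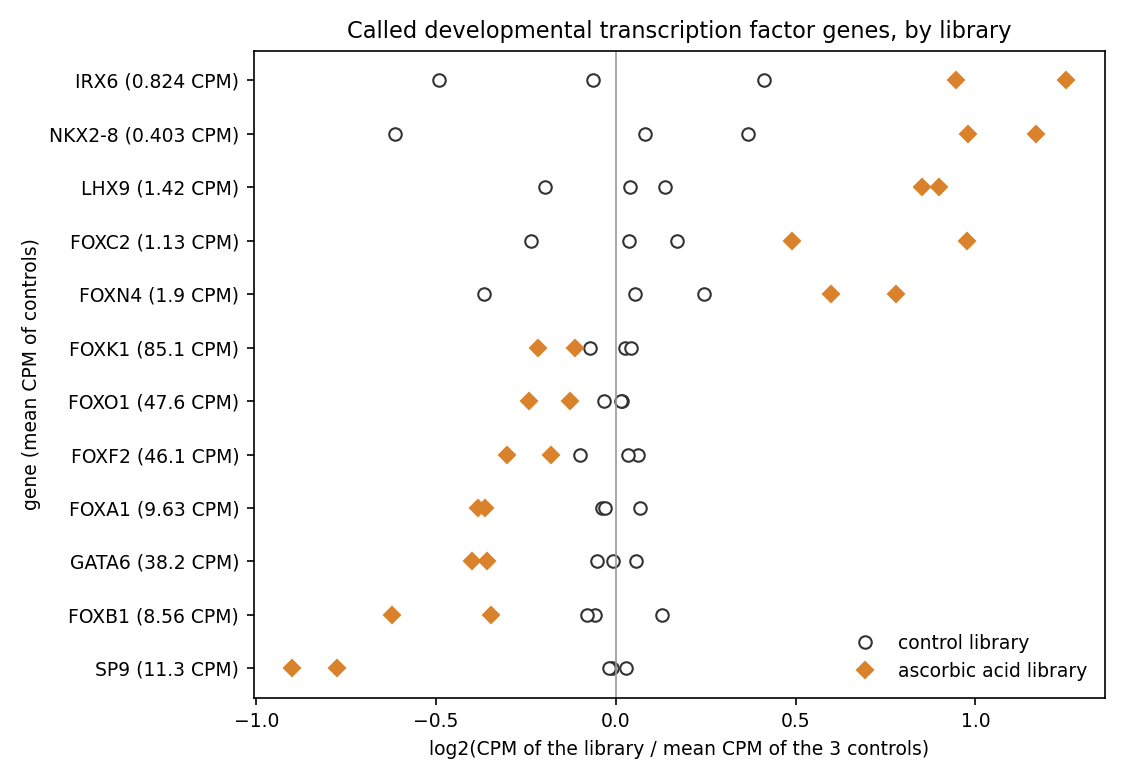
Each row is a called genes and each symbol a library, placed at the log2 ratio of its CPM to the mean CPM of the 3 controls. Open circles are control libraries and filled diamonds are ascorbic acid libraries, which lie outside the range of the controls in all 12 rows, from SP9 at the bottom (11.3 CPM in controls) to IRX6 at the top (0.824 CPM in controls).

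SP9 is a zinc finger factor of the Sp family that guides interneurons of the developing forebrain and outgrowth of the limb bud. It is on chromosome 2 (174334946 to 174338492, GRCh38, GENCODE 29) and was read at 11.2, 11.2 and 11.5 CPM in control replicates 1 to 3 and at 6.60 and 6.06 CPM in treated replicates 1 and 2. Both treated libraries lay far under the controls, which differed little among themselves. This was a 1.78-fold decrease, with a log2 fold change of -0.83 ± 0.11 (SE, edgeR adjusted p = 2.08e-06), and it was called in every one of 16 alternative fits, between -0.90 and -0.78. SP9 shares 63.7% of its exon length with AC018470.1, a gene on the opposite strand, and with the strand setting of the counting not given, reads of the pair cannot be told apart. Its family members SP8, a limb and forebrain factor, and SP6, a tooth and skin factor, had 0.04 ± 0.14 and 0.49 ± 0.32 and did not pass. SP8 was read at 4.74, 4.39 and 4.19 CPM in controls and 4.33 and 4.86 CPM with ascorbic acid, so its groups overlap.

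GATA6 fell at a higher level of expression. GATA6, a zinc finger factor of endoderm and heart (chromosome 18, 22169443 to 22202528), had 39.7, 36.8 and 38.0 CPM in controls and 29.8 and 28.9 CPM in treated libraries, and the groups stayed clear of each other. Its log2 fold change was -0.38 ± 0.07 (edgeR adjusted p = 0.000181). The call was kept in 15 of 16 alternatives and ended only when tested against a fold of 1.2. GATA6 shares 14.2% of its exon length with opposite-strand genes, and its antisense gene GATA6-AS1 had -0.23 ± 0.41 at 0.518 CPM and did not pass.

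The other GATA genes did not pass. GATA4, a heart and endoderm factor, had -0.13 ± 0.07, GATA2, a blood and endothelial regulator, 0.00 ± 0.07, and GATA3, a T cell and urinary tract regulator, 0.06 ± 0.12. Among the sine oculis homeobox genes, SIX4, a factor of muscle and kidney development, had -0.17 ± 0.07 (edgeR adjusted p = 0.13), with 45.2, 44.9 and 40.8 CPM in controls and 34.8 and 43.2 CPM in treated libraries. Treated replicate 2 of SIX4 lay within the controls and treated replicate 1 below them. SIX2, which keeps nephron progenitors undifferentiated, had 0.08 ± 0.07, SIX5 had 0.03 ± 0.11 and SIX3, a forebrain and eye factor, 0.31 ± 0.48, and these 4 did not pass. SIX5 shares 59.3% of its exon length with opposite-strand genes.

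The forkhead family was the largest, with 33 genes of which 32 were tested, 2 rose, 5 fell and 25 did not pass, beside 8.53% higher and 5.76% lower of all genes tested. FOXB1, of the developing diencephalon (chromosome 15, 60004222 to 60061730), had 8.22, 8.11 and 9.36 CPM in controls and 5.57 and 6.73 CPM with ascorbic acid. FOXA1, a pioneer factor that opens chromatin in endodermal and hormone-responsive epithelia (chromosome 14, 37589984 to 37596059), had 9.38, 9.42 and 10.1 CPM against 7.38 and 7.48 CPM. For both genes each treated library lay below each control. The log2 fold changes were -0.48 ± 0.12 (edgeR adjusted p = 0.00658) for FOXB1 and -0.37 ± 0.10 (0.0165) for FOXA1. The FOXB1 call ended without treated replicate 1 (-0.34, adjusted p = 0.139), and the FOXA1 call ended without treated replicate 1 (-0.36, 0.0904) or treated replicate 2 (-0.39, 0.0624).

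FOXF2, a factor of gut and palate mesenchyme (chromosome 6, 1389576 to 1395603), had 48.0, 43.0 and 47.2 CPM in controls and 40.7 and 37.4 CPM in treated libraries. FOXO1, which AKT keeps out of the nucleus when insulin is present (chromosome 13, 40469953 to 40666597), had 48.2, 48.1 and 46.5 CPM against 40.3 and 43.6 CPM. FOXK1, a forkhead factor tied to mTOR and nutrient supply (chromosome 7, 4682309 to 4771443), had 86.7, 87.6 and 81.0 CPM against 78.6 and 73.3 CPM. In each gene the gap between the groups was smaller than the difference between the treated libraries, although no treated library reached a control. The log2 fold changes were -0.24 ± 0.06 (edgeR adjusted p = 0.0119), -0.18 ± 0.06 (0.0385) and -0.16 ± 0.05 (0.0387). The FOXF2 call ended without control replicate 1 (-0.20, 0.0922) or treated replicate 2 (-0.19, 0.107). The FOXO1 call ended without control replicate 1, control replicate 2 or treated replicate 1 (-0.17 to -0.13, 0.124 to 0.275), and the FOXK1 call without control replicate 1, control replicate 2 or treated replicate 2 (-0.15 to -0.12, 0.159 to 0.211). FOXO1 and FOXK1 were also not called with library totals, with a filter of 5 CPM or with the trend over expression removed.

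Among the relatives of these genes, FOXF1 had -0.26 ± 0.12, FOXO3 -0.10 ± 0.05, FOXO4 -0.22 ± 0.09, FOXO6 0.32 ± 0.28, FOXK2 -0.08 ± 0.05 and FOXA3 0.44 ± 0.46, and none passed. FOXO4 was read at 14.0, 14.2 and 13.5 CPM in controls and 12.2 and 11.7 CPM in treated libraries. Its groups did not overlap, but its edgeR adjusted p was 0.0983.

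The 5 genes that rose were all weakly expressed. IRX6, an Iroquois homeodomain factor of the retina (chromosome 16, 55323760 to 55330760), had 33, 30 and 38 counts in controls and 77 and 84 in treated libraries, or 0.586, 0.789 and 1.10 CPM against 1.59 and 1.96 CPM. Both treated libraries were above all controls, which themselves spread widely. Its log2 fold change of 1.14 ± 0.28 (edgeR adjusted p = 0.00527) was the largest increase among the 99 genes, and the call ended without control replicate 1 (0.92, 0.0528) or treated replicate 2 (0.97, 0.0757). LHX9, a LIM homeodomain factor of the gonad and forebrain (chromosome 1, 197911902 to 197935478), had 82, 47 and 54 counts in controls and 124 and 113 with ascorbic acid, or 1.46, 1.24 and 1.56 CPM against 2.56 and 2.64 CPM. Its groups were the best separated of the 5, with 0.87 ± 0.20 (edgeR adjusted p = 0.00362), and it was called in all 15 alternatives that tested it.

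FOXN4, a factor of retinal and spinal interneurons (chromosome 12, 109277979 to 109309220), had 1.97, 1.47 and 2.25 CPM in controls and 3.26 and 2.88 CPM with ascorbic acid. FOXC2, a factor of lymphatic vessels and somite mesoderm (chromosome 16, 86566829 to 86569728), had 0.959, 1.16 and 1.27 CPM against 1.59 and 2.22 CPM. NKX2-8, an NK2 homeodomain factor of the foregut (chromosome 14, 36580579 to 36582607), had 24, 10 and 18 counts against 44 and 34, or 0.426, 0.263 and 0.520 CPM against 0.907 and 0.795 CPM. In each gene both treated libraries were above all controls, with 0.69 ± 0.19 (edgeR adjusted p = 0.0145) for FOXN4, 0.77 ± 0.24 (0.0314) for FOXC2 and 1.08 ± 0.37 (0.0493) for NKX2-8. All 3 calls ended with DESeq2 (adjusted p = 0.0639, 0.118 and 0.161) and with the trend over expression removed (0.0813, 0.158 and 0.176). All 3 also ended when tested against a fold of 1.2. FOXN4 was also lost without control replicate 2 (0.55, 0.064) or treated replicate 1 (0.60, 0.129), and FOXC2 without control replicate 1 (0.65, 0.142) or treated replicate 2 (0.50, 0.339). NKX2-8 was lost with the replicate number as a block (1.29, 0.0524), with GC and length trends removed (0.98, 0.0563), and without control replicate 1, control replicate 2, treated replicate 1 or treated replicate 2 (0.87 to 1.16, 0.105 to 0.242).

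**Figure D2:**
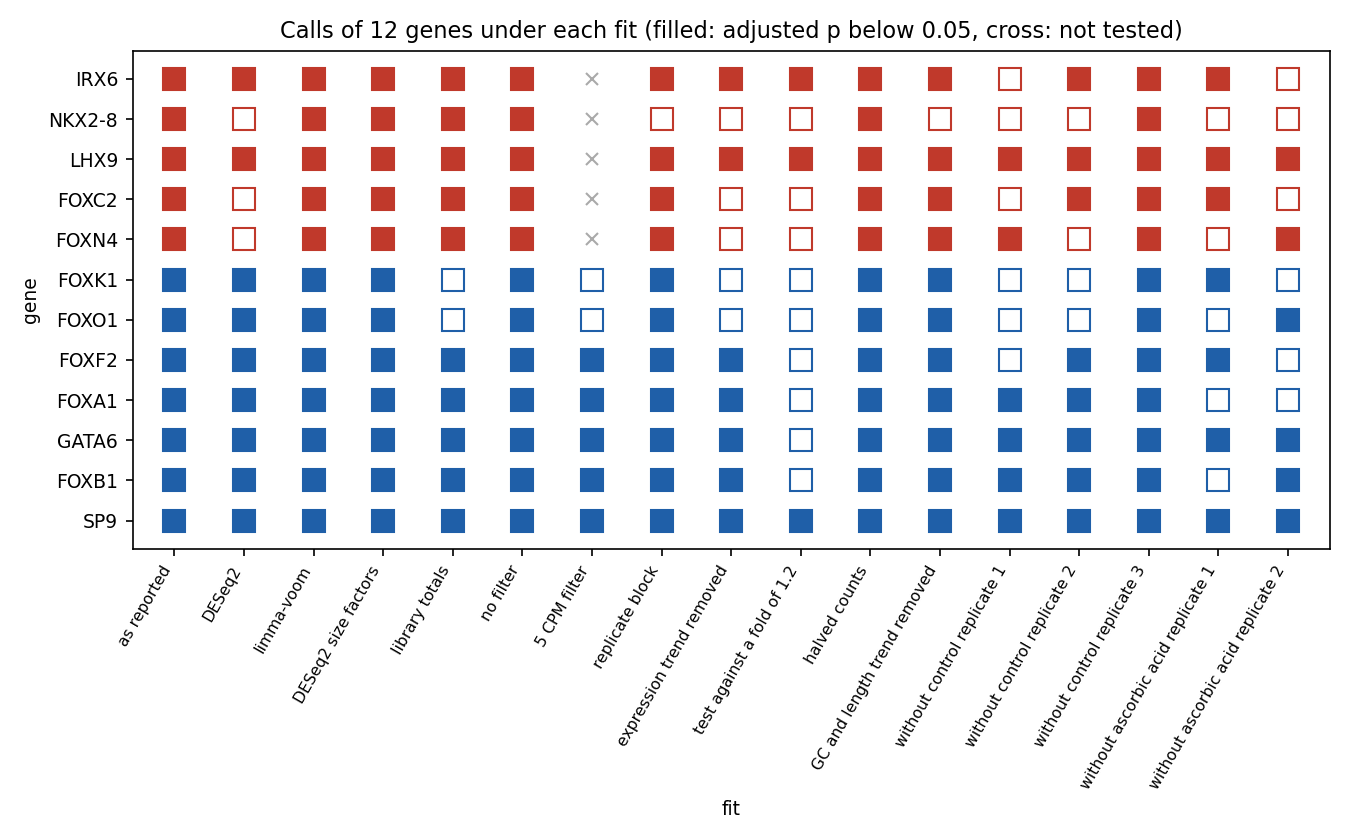
Rows are 12 called genes and columns the fit as reported followed by 16 alternatives, where a filled square means an adjusted p under 0.05, an open square a value that missed it, and a cross a gene that was filtered out. Red is higher and blue lower with ascorbic acid, and the SP9 row is filled throughout while NKX2-8 is filled in 6 of its 15 alternatives.

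The calls split by level of expression. The 5 genes that rose had mean levels of 0.582 to 2.37 CPM, and the 8 that fell had 7.60 to 81.4 CPM. Below 5 CPM, where 42 of the genes were tested, every called gene was higher, and from 5 CPM upward every called gene was lower. All genes have a slope in their median too. Below 5 CPM their calls were also nearly all higher. There 122 were higher and 7 lower below 1 CPM, and 331 and 14 from 1 to 5 CPM. From 5 CPM upward their calls went both ways. Counts were 382 higher and 92 lower from 5 to 20 CPM, and 388 and 386 from 20 to 100 CPM. At or above 100 CPM they were 80 and 380. The median log2 fold change of all genes went from 0.21 for the 2402 below 1 CPM through 0.15 for the 2284 between 1 and 5 CPM to 0.05 from 5 to 20 CPM, -0.02 from 20 to 100 CPM and -0.06 at or above 100 CPM. In the developmental genes these medians were 0.44, 0.22, -0.01, -0.10 and 0.04, over 18, 24, 26, 25 and 6 genes. Below 1 CPM, 1 of 18 was called higher, beside 5.08% of all genes of that level, and from 1 to 5 CPM 4 of 24, beside 14.5%. From 5 to 20 CPM, 3 of 26 were called lower and 0 higher, beside 3.27% and 13.6% of all genes. From 20 to 100 CPM, 5 of 25 were called lower and 0 higher, beside 7.14% and 7.18%. At or above 100 CPM, 0 of 6 were called, beside 16.0% lower and 3.37% higher. With the trend removed by cyclic loess, the median over the 99 genes was 0.01 and 4 genes were called higher (IRX6, LHX9, FOXM1 and SOX4) and 6 lower, among them SP9, FOXB1, GATA6, FOXA1 and FOXF2.

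**Figure D3:**
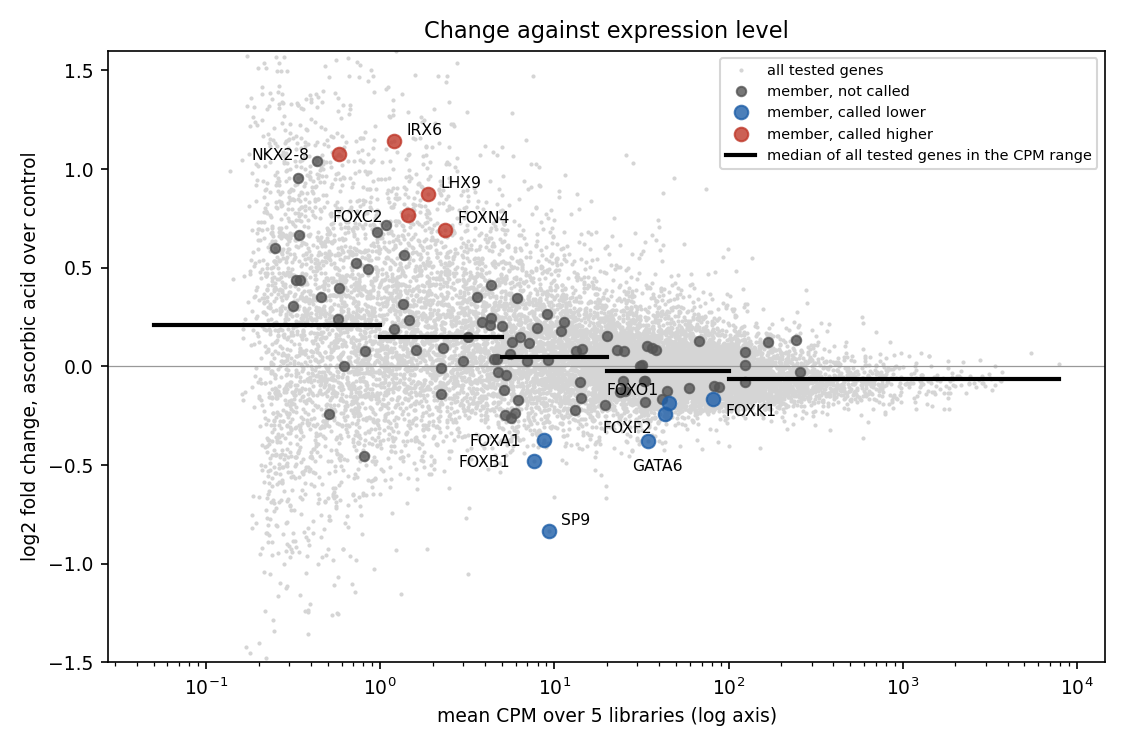
Each point is a gene, at its mean CPM on a log axis and its log2 fold change of ascorbic acid over control. Grey points are all tested genes, dark grey points the developmental factors that were not called, red and blue points those called higher and lower, and black bars the median of all tested genes in each CPM range, which goes from 0.21 below 1 CPM to -0.06 at or above 100 CPM. Genes beyond the vertical range are not drawn.

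The 6 developmental factors at or above 100 CPM did not pass edgeR's test, which called 3.37% of all genes of that level higher and 16.0% lower. FOXC1, a forkhead factor of eye, kidney and mesenchyme, was the highest, with 265, 261 and 255 CPM in controls and 261 and 250 CPM with ascorbic acid. Its log2 fold change was -0.03 ± 0.04. TBX3, a T-box repressor of limb and mammary development, had 124, 125 and 125 CPM against 124 and 126 CPM, or 0.01 ± 0.05. The groups overlapped in both genes, and their sign changed between fits. SOX12, an HMG box factor of embryonic neurons and mesenchyme, had 0.08 ± 0.05, and the broadly expressed forkhead genes FOXK2 and FOXJ3 had -0.08 ± 0.05 and -0.11 ± 0.05. Per kilobase of exon, FOXC1 led with 65.8 CPM, followed by SOX4 with 41.8, FOXM1 with 34.5, SOX12 with 26.7 and TBX3 with 20.9. Over the 26 uncalled genes of at least 20 CPM, log2 fold changes ran from -0.18 to 0.15 with a median SE of 0.07. Over the 37 uncalled genes below 5 CPM they ran from -0.45 to 1.04 with a median SE of 0.28.

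SOX4, which keeps progenitors alive and is induced by TGF-beta, had 239, 222 and 245 CPM in controls and 258 and 259 CPM with ascorbic acid. FOXM1, the forkhead factor of the G2/M programme, had 165, 159 and 165 CPM against 181 and 175 CPM. Treated libraries were above controls in both, and the log2 fold changes of 0.13 ± 0.05 (edgeR adjusted p = 0.0544) and 0.13 ± 0.05 (0.064) missed the threshold. Under alternative fits SOX4 passed in 8 and FOXM1 in 4, including library totals (0.18 and 0.17), a filter of 5 CPM (0.16 and 0.15) and removal of the expression trend (0.19 and 0.18). FOXM1 shares 15.9% of its exon length with ITFG2 on the opposite strand.

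The remaining families held few calls. Among 13 tested SOX genes values ran from SOX18, a vascular factor, at -0.45 ± 0.33 to SOX3, a neural progenitor factor, at 0.67 ± 0.47. SOX2, the neural and pluripotency factor, had 12.72, 14.58 and 14.96 CPM in controls and 15.01 and 14.85 CPM with ascorbic acid, or 0.09 ± 0.09, with overlapping groups. The highest of 5 tested PAX genes, the eye and forebrain regulator PAX6 (26.1% of exon length shared with another gene), had 21.4, 19.6 and 21.0 CPM against 18.6 and 17.5 CPM, or -0.19 ± 0.08 (edgeR adjusted p = 0.0969). The DLX genes, which pattern forebrain, jaw and limb, ran from -0.18 ± 0.06 for DLX1 (edgeR adjusted p = 0.0577) to 0.44 ± 0.46 for DLX3, and the highest of them, DLX2, had 60.9, 60.7 and 61.2 CPM against 57.6 and 55.4 CPM. MSX2, a BMP-induced homeodomain factor, had -0.12 ± 0.07, EMX2, a cortical and urogenital factor, -0.25 ± 0.13, and OTX1, a forebrain factor, 0.35 ± 0.15. In edgeR's test 0 of the 37 tested SOX, PAX, TBX, DLX, MSX, EMX and OTX genes passed, beside 14.3% of all genes. These families were grouped because they held no call, so the 0 follows from the choice and shows no shortage of calls. The absence of calls also depended on the fit, since 12 of 16 alternatives called at least 1 of these genes. With GC and length trends removed 7 were called (DLX4, PAX9 and SOX4 higher and DLX1, DLX2, PAX6 and TBX1 lower), and with library totals 4 were higher (DLX4, PAX9, SOX13 and SOX4). DESeq2, limma-voom, the test against a fold of 1.2 and the fit without control replicate 2 called 0. At an unadjusted p under 0.05, edgeR held 2 SOX, 3 PAX, 2 DLX, 1 MSX and 1 OTX genes. The share of all genes under that unadjusted threshold is not given here, so these counts cannot be read as many or few.

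Of 6 tested LHX genes LHX9 rose and 5 did not pass, and the highest, LHX4, a pituitary and motor neuron factor, had 14.50, 14.89 and 14.99 CPM in controls and 11.94 and 14.54 CPM in treated libraries (-0.16 ± 0.09). Treated replicate 2 of LHX4 lay just above control replicate 1. LHX4 shares 30.8% of its exon length with ACBD6 on the opposite strand, which averaged 70.6 CPM. Of 3 tested IRX genes IRX6 rose, while IRX3 and IRX5, which pattern limb, heart and nervous system, had 0.12 ± 0.11 and -0.12 ± 0.14. Of 9 tested NKX genes NKX2-8 rose, and NKX2-5, the cardiac homeodomain factor, was the highest with 22.9, 24.7 and 26.6 CPM against 25.8 and 26.3 CPM, or 0.08 ± 0.07. Its groups overlapped.

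**Figure D4:**
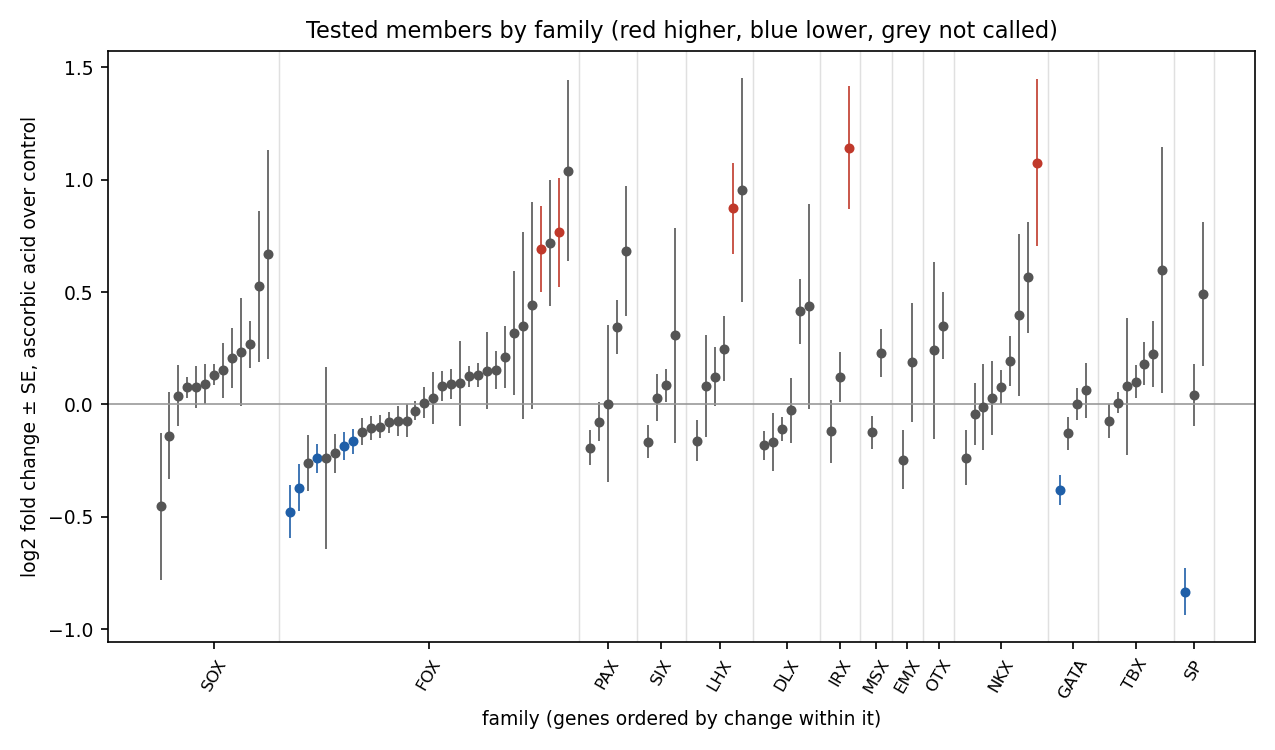
Points are the log2 fold changes of 98 of the tested genes with their SE as bars, grouped by family and ordered within it, in red for the 5 called higher, in blue for 7 called lower and in grey for the rest. The calls drawn are spread over 6 of the 14 families, and the 10 longest bars belong to genes below 1 CPM.

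Separation of the groups alone was common. In 49 of the 99 genes (49.5%) the 2 treated libraries lay wholly above or wholly below the 3 controls, beside 43.1% of all genes tested. Of these 49, 13 were called. Among the 36 that were not called, the closest to the threshold were DLX4, a placental and craniofacial factor (0.41 ± 0.14, edgeR adjusted p = 0.0518), SOX4, and PAX9, a factor of teeth and thymus (0.34 ± 0.12, 0.0552). FOXQ1, an epithelial forkhead factor, had the largest uncalled difference, with 20, 10 and 10 counts in controls against 30 and 28 (1.04 ± 0.40, 0.0822).

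Several of these genes lie in pairs or clusters along the chromosomes. There were 13 neighbouring pairs no more than 200 kb apart, and the log2 fold changes of the neighbours had the same sign in 11. With 63 of the 99 tested developmental genes above zero and 36 below, unrelated genes would often share a sign as well. Some genes, such as NKX2-8 and FOXC2, stand in more than 1 pair, so the pairs are not independent. Whether neighbours share a sign more often than other genes was not tested. In 6 pairs 1 of the neighbours was called. On chromosome 14, NKX2-1, a lung and thyroid factor (0.40 ± 0.36), NKX2-8 (1.08 ± 0.37) and PAX9 (0.34 ± 0.12) were all above zero. The pairs of opposite sign were FOXF1 (-0.26 ± 0.12) with FOXC2 (0.77 ± 0.24), 51.4 kb apart on chromosome 16, and FOXQ1 (1.04 ± 0.40) with FOXF2 (-0.24 ± 0.06), 74.8 kb apart on chromosome 6. In both the gene below zero was the more abundant. Of 40 antisense, divergent or overlapping opposite-strand genes of the table, which belong to 36 of the developmental genes, 27 were tested. EdgeR called 0 of these, beside 14.3% of all genes tested. It held 0 also at an unadjusted p of 0.05, for which the share of all genes is not given here. DESeq2 called 0.

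Promoters were read from RefSeq (GRCh38.p14, 250 bases before to 50 after the start), which matched 72 of the 103 genes. They held a median of 26.5 CpG in 300 bases, beside 26.0 in the 11516 tested genes with a promoter. The ratio of observed to expected CpG was above 0.6 in 86.1% of them, beside 81.4% of all tested genes and 48.9% of all 27305 promoters. Among called genes with a promoter, the 3 that rose (FOXN4, LHX9 and NKX2-8) held 16, 23 and 17 CpG and the 6 that fell held 10 to 55. Shown are 4, 5′ to 3′ on the strand of the gene with each CpG in capitals. They are, of the called genes with a promoter, the decrease and the increase kept in the most fits (GATA6 at chr18:22169339-22169638, plus strand, 25 CpG, and LHX9 at chr1:197912214-197912513, plus strand, 23 CpG) and the genes with the fewest and most CpG (FOXB1 at chr15:60004061-60004360, plus strand, 10 CpG, and FOXK1 at chr7:4682045-4682344, plus strand, 55 CpG).
GATA6: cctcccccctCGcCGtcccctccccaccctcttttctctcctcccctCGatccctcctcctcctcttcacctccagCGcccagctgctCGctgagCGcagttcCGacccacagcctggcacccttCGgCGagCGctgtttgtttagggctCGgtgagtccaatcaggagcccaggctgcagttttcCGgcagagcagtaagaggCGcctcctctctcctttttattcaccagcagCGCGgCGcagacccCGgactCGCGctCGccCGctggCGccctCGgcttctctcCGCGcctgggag
LHX9: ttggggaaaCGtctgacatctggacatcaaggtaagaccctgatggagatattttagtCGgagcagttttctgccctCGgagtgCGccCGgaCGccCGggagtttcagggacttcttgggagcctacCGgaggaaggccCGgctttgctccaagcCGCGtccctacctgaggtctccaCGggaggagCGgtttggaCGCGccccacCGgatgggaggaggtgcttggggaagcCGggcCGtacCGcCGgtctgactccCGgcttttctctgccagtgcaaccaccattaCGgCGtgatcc
FOXB1: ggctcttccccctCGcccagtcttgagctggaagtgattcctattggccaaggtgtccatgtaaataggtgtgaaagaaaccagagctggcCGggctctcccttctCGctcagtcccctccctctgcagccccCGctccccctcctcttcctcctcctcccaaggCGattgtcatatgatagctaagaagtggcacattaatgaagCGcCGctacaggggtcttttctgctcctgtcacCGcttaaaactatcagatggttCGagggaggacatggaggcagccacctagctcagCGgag
FOXK1: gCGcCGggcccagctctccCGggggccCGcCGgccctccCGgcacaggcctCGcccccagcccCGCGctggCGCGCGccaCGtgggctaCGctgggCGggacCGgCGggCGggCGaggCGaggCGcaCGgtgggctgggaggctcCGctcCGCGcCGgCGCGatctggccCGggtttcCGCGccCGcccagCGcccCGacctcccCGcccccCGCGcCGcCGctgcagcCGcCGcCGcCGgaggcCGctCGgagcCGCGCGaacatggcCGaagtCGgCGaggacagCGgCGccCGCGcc
FOXB1 and FOXK1 both fell, with the lowest and the highest CpG count of the called genes with a promoter. On both strands 6 motifs were searched, none of which contains another. The GC box GGGCGG, which Sp family proteins bind, was in 63.9% of the 72 promoters beside 69.3% of tested genes. The homeodomain core TAATTA was in 6.94% beside 2.08%, the SOX core ACAATG in 9.72% beside 5.94%, the GATA core AGATAA in 8.33% beside 5.04%, the forkhead core TGTTTAC in 2.78% beside 2.25% and the TATA box TATAAA in 5.56% beside 5.89%. Of the 4 promoters printed, FOXK1 held 4 GC boxes and the other 3 held none of the 6 motifs. A match is a run of letters in this window and not a measured site.

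Other genes of the same programmes were read from lists of cofactors, further developmental factors, patterning signals and targets. Beside the counts of each list stand 8.53% higher and 5.76% lower of all genes tested. No list was tested as a set. Of 11 tested TALE cofactors, which pair with homeodomain proteins, MEIS3 was called higher (0.66 ± 0.20) and 10 did not pass. The MEIS3 call ended without control replicate 1, control replicate 2, treated replicate 1 or treated replicate 2 (0.56 to 0.68, edgeR adjusted p = 0.0684 to 0.111), with DESeq2 (0.103) and with the trend removed (0.13). Of 20 LIM, EYA, DACH, TLE and FOG cofactors 1 rose, 2 fell and 17 did not pass. ZFPM2, the FOG cofactor of GATA4 and GATA6, had 16.5, 15.2 and 14.3 CPM in controls and 11.6 and 11.5 CPM with ascorbic acid, and fell with -0.41 ± 0.09 (edgeR adjusted p = 0.00233). EYA1, a coactivator of sine oculis homeobox proteins, had 35.1, 33.3 and 33.7 CPM in controls and 29.6 and 28.3 CPM with ascorbic acid, and fell by 0.23 ± 0.07 on the log2 scale (edgeR adjusted p = 0.0172). The EYA1 call ended without control replicate 1 (-0.20, 0.0968), without treated replicate 2 (-0.21, 0.0947) and with library totals (-0.19, 0.0539). SSBP4, a partner of LIM domain complexes, rose by 0.30 ± 0.08, a call that ended without control replicate 1 (0.25, 0.1) or treated replicate 1 (0.17, 0.314).

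Of 63 tested further developmental transcription factors 5 rose, 5 fell and 53 did not pass, with a median log2 fold change of 0.04. These counts lie near the shares of all genes tested, 8.53% higher and 5.76% lower. SNAI2, a repressor of epithelial genes, went from 74.3, 73.4 and 70.7 CPM to 89.4 and 95.3 CPM (0.34 ± 0.05, edgeR adjusted p = 3.62e-05). ID4, an inhibitor of bHLH factors, went from 114, 117 and 110.4 CPM to 137 and 147 CPM (0.32 ± 0.05, 4.53e-05), and BARX1, a homeodomain factor of stomach and teeth, from 0.888, 1.32 and 1.10 CPM to 2.43 and 2.78 CPM (1.26 ± 0.22, 0.000195). In these 3 genes both treated libraries were above every control, and the calls were kept when any 1 library was left out. Of 35 patterning signals and receptors 3 rose, 5 fell and 27 did not pass, among them the receptor gene NOTCH3 (0.51 ± 0.07) and the ligand gene WNT3 (0.72 ± 0.13), which rose, and the receptor gene FGFR1 (-0.27 ± 0.06), which fell. Of 11 tested kidney development genes outside the families 2 fell (EYA1 and the endocytic receptor gene LRP2, -0.45 ± 0.07) and 9 did not pass.

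Targets of 2 forkhead groups were listed as well. Of 21 FOXM1 targets 4 fell and 17 did not pass, with a median of -0.10. Of all genes tested 5.76% fell. At or above 100 CPM, where the 3 fallen targets named next lie, 16.0% of all genes fell, with a median of -0.06. FOXM1 itself had 0.13 ± 0.05 and did not pass. The mitotic genes CDC20 (-0.18 ± 0.05), AURKA (-0.17 ± 0.05) and AURKB (-0.17 ± 0.05) fell. Each of these 3 calls ended without control replicate 1 (-0.17 to -0.16, adjusted p = 0.0573 to 0.0606) and with the trend removed (-0.13 to -0.12, 0.0865 to 0.087). With library totals the calls of AURKA (-0.13, 0.0573) and AURKB (-0.13, 0.072) ended as well. CDC20 and AURKA were also lost without treated replicate 2 (-0.12 and -0.14, 0.129 and 0.0962), AURKA without control replicate 2 (-0.17, 0.0543), and AURKB without control replicate 3 or treated replicate 1 (-0.15 and -0.16, 0.0618 and 0.0743). Among the FOXO targets, 25 in number with a median of 0.02, 4 rose, 3 fell and 18 missed the threshold. The cell cycle inhibitor gene CDKN1A rose by 0.30 ± 0.06, and CITED2, a CBP/p300 binding regulator, and BNIP3, a mitophagy receptor, had -0.37 ± 0.06 and -0.26 ± 0.06. Against a fold of 1.2, only BARX1, NOTCH3 and WNT3 of all these lists stayed called.

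Too low to test were 4 of the 103 genes. PAX5, a B cell factor, stood at the minimum with 20 counts in all (8, 0 and 6 in controls and 6 and 0 in treated libraries), and FOXA2, an endoderm pioneer factor, had 24 (4, 2 and 4 against 10 and 4). SOX30 and PAX7 had 29 and 34. Just under the minimum was TBX15, a T-box factor of skeleton and fat, with 19 counts (4, 6 and 3 against 2 and 4). Of the 40 genes under the minimum 24 had 0 counts in every library, and the other 16 had 1 to 19 counts in all. Among counts of 1 to 10, even numbers made up 71.3 to 75.9% depending on the library. With all counts halved before the fit, the 13 calls were all kept.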

How the data were processed

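RNA was sequenced from 3 control and 2 ascorbic acid libraries of HEK293T cells. The authors deposited 1 table of raw counts per gene, and the submitters' processing notes name Trimmomatic 0.39, STAR, featureCounts, DESeq2 and hg38. Which annotation was counted, whether strand was used and how reads with several matches were handled is not given in the sources used here. Columns were assigned to samples by their names.

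All computation was on the counts as deposited. Genes were filtered with filterByExpr by group, scaled by TMM and tested with edgeR 4.0.16 (R 4.3.3, robust quasi-likelihood test, no covariate), with Benjamini-Hochberg adjustment over 15271 genes and a threshold of 0.05. The SE is the log2 fold change divided by the square root of F. Coordinates, exon lengths and overlaps come from GENCODE 29 on GRCh38, matched by symbol. The fit was tested on simulated counts.

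The alternatives numbered 16: DESeq2 1.42.0, limma-voom (limma 3.58.1), DESeq2 size factors, library totals, no low-count filter, at least 5 CPM in 2 libraries, a replicate block, cyclic loess to remove the expression trend, a test against a fold of 1.2, halved counts, removal of GC and length trends (mgcv 1.9.3), and leaving out each of 5 libraries.

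Genes named by rule are those called, the 10 with the highest mean CPM, the highest of each family, those beside the minimum of 20 counts, and up to 3 called genes of each list. Other genes named were chosen after their values were seen. The genes, lists and markers were chosen with earlier results of these data known. The values of 1 called gene are not reported here and it is left out of the figures, while counts over all genes include it.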

Additional observations from a re-analysis of the deposited data

How the results depend on the processing

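Of 728 values of 46 named genes under the alternatives, 625 kept their direction and side of the threshold, 83 lost the call, 15 gained one and 5 reversed. Reversed values were all of uncalled genes near zero: TBX3 with DESeq2 (-0.0004) and without treated replicate 2 (-0.0112, in a range of -0.0112 to 0.0188 without 1 library), FOXC1 with library totals (0.0153) and with the expression trend removed (0.0331), and NKX2-5 with GC and length trends removed (-0.0074). For the developmental families (5 higher and 8 lower as reported), DESeq2 called 2 higher and library totals 11 higher. The test against a fold of 1.2 called 2 higher and 1 lower (3.03% of those tested, beside 1.87% of all genes). Removal of GC and length trends gave 9 higher and 16 lower (25.3%, beside 20.1%). Leaving out 1 library gave 3 to 6 higher and 5 to 8 lower. Over all genes (1303 higher and 879 lower as reported), 806 were higher with DESeq2, 389 lower with library totals, 542 lower with the 5 CPM filter, 519 lower of 1447 called with the trend removed, and 1412 lower with GC and length trends removed. Against a fold of 1.2, 275 were higher and 11 lower, 286 in all. Leaving out 1 library gave 1180 to 2047 calls, 790 to 1279 higher and 335 to 768 lower. The other listed genes (14 higher and 20 lower as reported) gave 9 higher with DESeq2, 23 higher and 11 lower with library totals, 3 higher and 0 lower against a fold of 1.2, and 8 to 15 higher and 11 to 18 lower without 1 library. Library totals moved the share of higher calls over all genes from 59.7% to 81.5%. The cause of these differences was not tested.

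Replicate numbers 1 and 2 occur in both groups, but same-numbered libraries hardly deviated together (correlations of 0.0247 and 0.0109 over 2 pairs). With 2 treated libraries, their deviations from the group mean mirror each other, so the 2 correlations are not independent. They cannot show whether same-numbered libraries were made together, and the labels do not say. With the replicate as a block, 5 of the developmental genes were higher and 8 lower, with 12 of the 13 calls shared (NKX2-8 was lost at an adjusted p of 0.0524 and SOX4 gained at 0.0287), and 1076 genes were higher and 804 lower over the table. Treated libraries number 2, counts below 5 CPM carry wide errors, and the 13 tested genes that share over 10% of their exons with another gene may hold its reads.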
